A study of Oryza sativa with 6 samples.

Results

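Alpha-expansins are small secreted proteins that loosen the plant cell wall. They act without cutting the wall polymers, at the acid pH that growing cells set up outside the membrane, and let cellulose microfibrils and matrix polymers slip while turgor stretches the cell. In rice they form a large gene family beside the beta-expansins and the expansin-like genes, and single members are known from growing coleoptiles, internodes, leaves and roots. Described here are 6 rice alpha-expansin genes, EXP1, EXP5, EXP6, EXP7, EXP10 and EXP29, each read by 1 probe set that was chosen by its array identifier. They are 6 of 17905 genes that the array annotation pairs with a probe set of their own. The gene table lists 29 alpha-expansin genes, of which 14 had such a probe set.

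The arrays held RNA of 3-week-old rice seedlings of a japonica variety, grown from sterilised seed in artificial soil. Wild type and Epi-df were each represented by 3 biological replicates, with 1 array apiece and no treatment in either group. Epi-df plants are known for their dwarf growth, which goes back to an epigenetic change at the Polycomb group gene FIE1. The labels name the seedling as the tissue without saying which organs were taken, and nothing says how many plants went into a replicate.

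Median array intensity lay between 108.1 and 114.5. The actin 3' to 5' ratio, which rises as RNA degrades, was 9.83 to 10.7 over the wild type samples and 7.72 to 13.8 over the Epi-df samples. The same ratio for GAPDH was 1.96 to 2.33 in wild type and 1.63 to 2.11 in Epi-df. The actin ratio was highest in Epi-df replicate 1 and the GAPDH ratio in wild type replicate 1. Leaf genes were bright: RBCS, the small subunit of Rubisco, ranged from 23271 to 24975, near the highest intensity of the arrays. The brighter chlorophyll-binding protein gene of the name LHCP ranged from 15234 to 15847 in wild type and from 17779 to 19960 in Epi-df. Of the root-expressed genes, the silicon channel gene LSI1 read 368.9 to 446 and 473.2 to 661.7, the silicon exporter gene LSI2 read 20.7 to 26.3 over all arrays, and NAS2, of iron uptake, read 688.1 in Epi-df replicate 3 and at most 67.2 elsewhere. The stamen and carpel genes MADS3 and MADS58 and the seed storage gene GLUA1 read 18.9 to 53.1. No single-gene probe set in the annotation carried the names CAB1R, PSAD, RCC3 or GLUB1.

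Setting Epi-df against wild type asks here whether wall-loosening genes are read at other levels in the dwarf seedlings. None of the 6 alpha-expansin genes passed the test (limma, adjusted p under 0.05 with a change of at least 2-fold). EXP6 and EXP7 had higher intensities in all 3 Epi-df arrays than in any wild type array, by 1.31-fold and 1.20-fold. EXP5 and EXP10 had higher means in Epi-df with overlapping groups, EXP29 had nearly equal means, and EXP1 had a lower mean in Epi-df with the widest spread of the 6. Since whole tissue was measured, fewer cells of a type and less RNA per cell cannot be told apart in any of these values. Intensities are MAS5 signals on a linear scale, and each probe set is compared with itself only. Log2 changes are differences of group means of log2(intensity + 16), Epi-df minus wild type, and ± after a log2 change is its standard error.

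**Figure D1:**
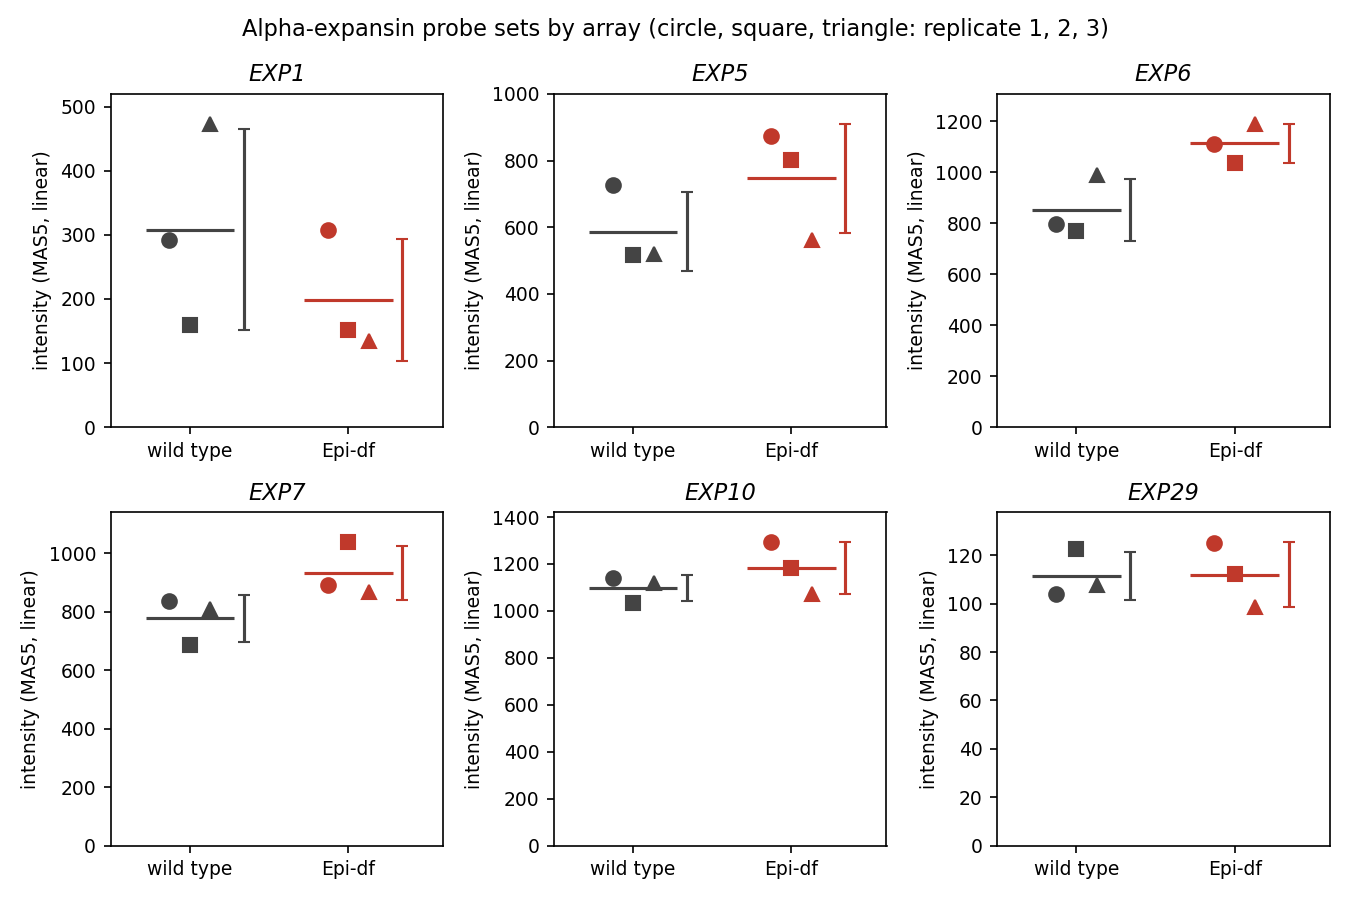
Intensity (MAS5, linear, each axis starting at 0) of the 6 alpha-expansin probe sets in the 3 wild type and 3 Epi-df arrays. Horizontal lines are group means, bars beside them are ± 1 SD, and the marker shape gives the replicate number. For EXP6 and EXP7 the Epi-df points all lie above the wild type points, and for EXP1 the points of both groups are spread widely.

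EXP6 read 796.4, 770.7 and 991.1 in wild type replicates 1, 2 and 3 and 1111, 1038 and 1190 in Epi-df replicates 1, 2 and 3. The groups did not overlap, and the gap between the highest wild type and the lowest Epi-df array was small. The means were 852.8 ± 120 in wild type and 1113 ± 76.1 in Epi-df (SD, n = 3 in each group). The log2 change was 0.39 ± 0.11, with a 95% interval of 0.12 to 0.65 (limma adjusted p = 0.165 over all tested probe sets). EXP6 was the 1 member of the 6 whose interval lay on 1 side of 0, and the interval reached up to a 1.57-fold difference.

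EXP7 has been linked in rice to salt tolerance when overexpressed. It read 837, 684.6 and 808.2 in wild type and 890.5, 1037 and 865.5 in Epi-df. The lowest Epi-df array stood just above the highest wild type array. The means were 776.6 ± 81 and 931 ± 92.6, a log2 change of 0.26 ± 0.11 with a 95% interval of -0.0013 to 0.52 (limma adjusted p = 0.349). Another 2 probe sets are paired with EXP7. They read 36.8 to 54.1 over the 6 arrays, under the mean intensity of 81.1 that a probe set needed to be tested, so they give no second reading of the difference.

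LHCP and LSI1 were, like EXP6 and EXP7, higher in every Epi-df array than in every wild type array. On the log2 scale this brighter LHCP gene was 0.28 ± 0.06 higher in Epi-df (limma adjusted p = 0.0749) and LSI1 was 0.44 ± 0.14 higher (limma adjusted p = 0.184), neither past the threshold. A dimmer gene of the name LHCP read 5390 to 6635 in wild type and 8245 to 11068 in Epi-df. Its log2 change was 0.57 ± 0.13 (limma adjusted p = 0.0873), also not past the threshold. It was met among the named genes most like EXP7 over the 6 arrays (Pearson's r 0.962). A gene picked by its likeness to EXP7 was apt to be higher in Epi-df too. Its values are thus no separate reading beside those of EXP7. RBCS had a log2 change of -0.02 ± 0.05 with overlapping groups (limma adjusted p = 0.930). Its 24975 in wild type replicate 2, 24273 in Epi-df replicate 1 and 24905 in Epi-df replicate 2 were the top readings of those arrays. In the other arrays another probe set read higher, such as 24906 in wild type replicate 1, where RBCS read 24112. Whether a gene that bright can still show a rise was not tested. LSI2 and NAS2 did not follow. LSI2 overlapped at its low level. NAS2 read 65.4 and 65.3 in Epi-df replicates 1 and 2, below the 67.2 of wild type replicate 1. Whether the share of leaf or root tissue had a part in the EXP6 and EXP7 values was not tested.

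EXP5 read 725.2, 516.8 and 518.7 in wild type and 874.9, 802.4 and 562.2 in Epi-df. The groups overlapped: wild type replicate 1 stood above Epi-df replicate 3. The means were 586.9 ± 120 and 746.5 ± 164, a log2 change of 0.33 ± 0.19 with a 95% interval of -0.12 to 0.79 (limma adjusted p = 0.530). Leaving out Epi-df replicate 3 gave a difference of 0.52, and leaving out Epi-df replicate 1 gave 0.21.

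EXP10 is known in rice as an aluminium-induced gene of the root tip. It read 1141, 1034 and 1121 in wild type and 1292, 1182 and 1071 in Epi-df. Epi-df replicate 3 fell among the wild type arrays, so the groups overlapped. The means were 1099 ± 56.6 and 1182 ± 111, a log2 change of 0.10 ± 0.09 with a 95% interval of -0.12 to 0.32 (limma adjusted p = 0.726). The change was 0.17 when Epi-df replicate 3 was left out and 0.035 when Epi-df replicate 1 was.

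EXP29, whose probe set stood not far above the filter at 81.1, read 103.9, 122.6 and 107.8 in wild type and 125.2, 112.2 and 98.6 in Epi-df. Both groups covered nearly the same range. The means were 111.4 ± 9.86 and 112 ± 13.3, a log2 change of 0.0044 ± 0.10 with a 95% interval of -0.24 to 0.24 (limma adjusted p = 0.992). The sign of so small a change turned when single arrays were left out, with values from -0.069 to 0.082.

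EXP1, one of the first expansin genes cloned from rice, read 291.6, 160 and 473.3 in wild type and 307.2, 152.1 and 133.9 in Epi-df. The groups overlapped, and within each group the highest array stood 2.96 times (wild type) and 2.29 times (Epi-df) above the lowest. The means were 308.3 ± 157 and 197.8 ± 95.2, a log2 change of -0.57 ± 0.41 with a 95% interval of -1.52 to 0.38 (limma adjusted p = 0.628). Its change was -0.21 when wild type replicate 3 was left out and -0.95 when wild type replicate 2 was. It was -0.35 when Epi-df replicate 3 was left out and -0.91 when Epi-df replicate 1 was. Its spread within groups, 0.67 on the log2 scale, was at percentile 99.2 of all tested probe sets and at percentile 98.9 of the 1000 nearest to it in mean intensity. For the other members the percentile among all tested probe sets was 93.3 for EXP5, 65.1 for EXP6, 61.4 for EXP7, 54.8 for EXP29 and 39.9 for EXP10.

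Read against the whole table, 0 of the 6 members were called, and 0.614% of the 34355 tested probe sets were (211, with 61 higher and 150 lower in Epi-df). That count was 111 without wild type replicate 1 and 117 without wild type replicate 2. At an unadjusted limma p under 0.05 stood 1 member, EXP6, beside 14.4% of tested probe sets. The groups did not overlap in 2 of 6 members, both higher in Epi-df, beside 19.6% of tested probe sets (9.82% higher and 9.79% lower). A positive log2 change was seen in 5 of 6 members and in 53.9% of tested probe sets. The members' median log2 change was 0.18, beside 0.01 over all tested probe sets, whose median absolute change was 0.09. In 5 of 6 members the 95% interval lay inside 2-fold in both directions. That of EXP1 did not.

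**Figure D2:**
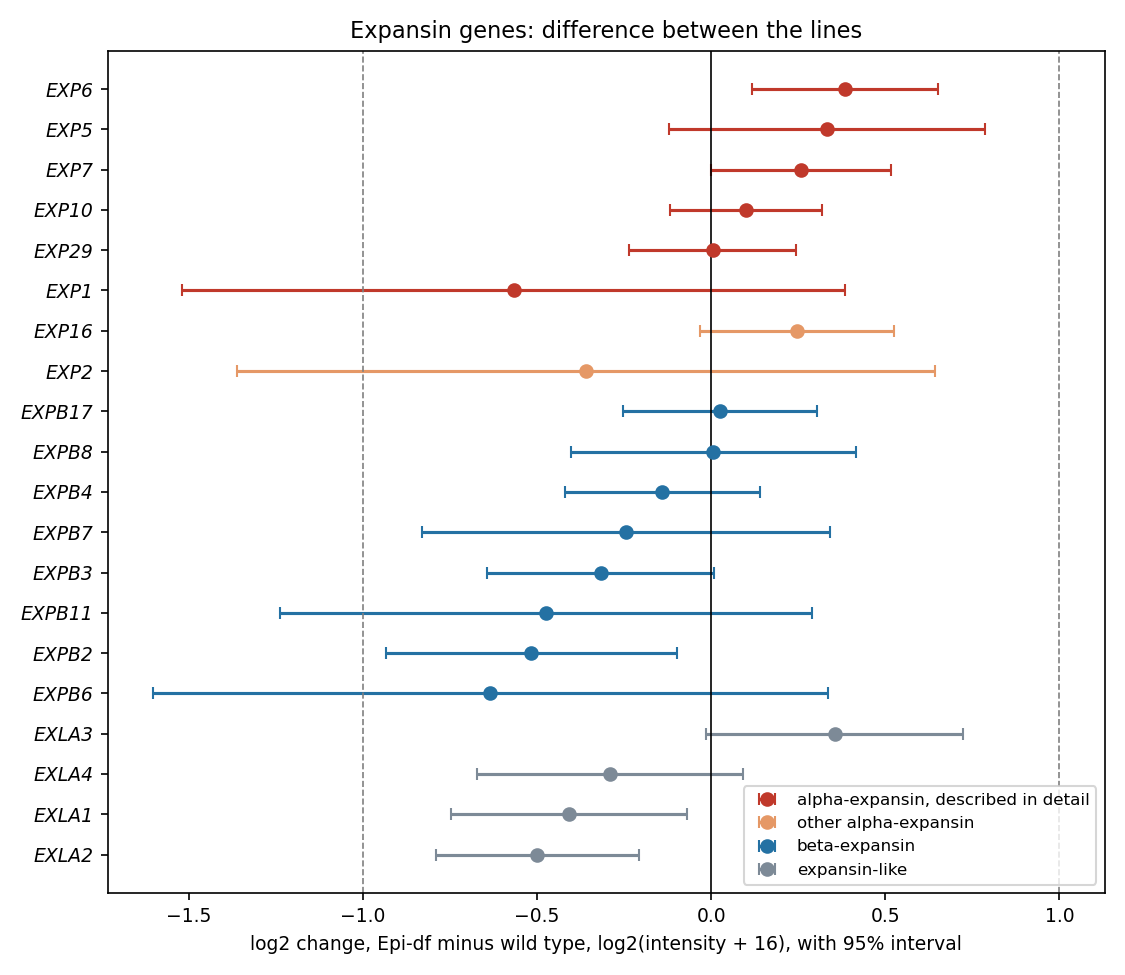
Log2 change (Epi-df minus wild type, on the log2(intensity + 16) scale) with its 95% interval for the 6 alpha-expansin genes and the 14 other tested expansin genes. The dashed lines mark 2-fold differences. EXP6 is the 1 alpha-expansin whose interval leaves out 0, and the widest intervals are those of EXP1, EXP2 and EXPB6.

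The other alpha-expansin genes with a probe set of their own were EXP2, EXP3, EXP4, EXP8, EXP16, EXP26, EXP31 and EXP32. Of these 8, 6 were under the filter on low values, with 37.1 to 86.5 over the 6 arrays. They include EXP4, which is known from the growing internodes of deepwater rice and read 37.1 to 47.2 in wild type and 48.1 to 53.2 in Epi-df. These readings are too low to be tested under the filter.

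EXP2 read 1819, 1064 and 3413 in wild type and 2175, 1446 and 989.2 in Epi-df. High and low arrays occurred in both groups, and the log2 change of -0.36 ± 0.43 did not pass the test (limma adjusted p = 0.802). It turned to 0.068 when wild type replicate 3 was left out. EXP16 read 224.1, 217.9 and 218.5 in wild type and 305.3, 271.8 and 222.2 in Epi-df, with a log2 change of 0.25 ± 0.12 (limma adjusted p = 0.416). Its lowest Epi-df array stood between the wild type arrays.

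In genome position the 6 members stand apart from one another. None has another alpha-expansin gene among the 5 protein-coding genes on either side, while 12 of the other 23 alpha-expansin genes do. The largest such group in the gene table is EXP12, EXP15, EXP18, EXP19, EXP20 and EXP25, none of which has a single-gene probe set here.

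The members differed in how alike they were over the arrays. Likeness is given as Pearson's r of the log2 levels over the 6 arrays, as a description only: 6 arrays in 2 groups are few, and all genes of an array share its RNA and its scaling. Among the 15 pairs of members, r was highest for EXP5 with EXP10, at 0.884 (Spearman's rho 0.943, and 0.843 for the deviations from the group means). EXP5 with EXP7 gave 0.716 and EXP6 with EXP7 gave 0.627, of which 0.025 remained for EXP6 with EXP7 once the group means were taken out. EXP1 had an r of 0.035 with EXP5, -0.10 with EXP6, -0.12 with EXP7, 0.086 with EXP29 and 0.393 with EXP10. For deviations from the group means these were 0.395, 0.584, 0.364, 0.108 and 0.805, the last for EXP10. Even so, among the wild type arrays EXP1 was highest in replicate 3 and EXP10 in replicate 1. EXP16 was like EXP10 (r = 0.904) and EXP5 (r = 0.873), being highest in Epi-df replicate 1 with both.

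EXP1 went with EXP2 and with most beta-expansins. Its r with EXP2 was 0.959 (Spearman's rho 0.943), 0.970 for the deviations from the group means, and 0.873 without wild type replicate 3 and Epi-df replicate 3, the 2 arrays farthest from its median. An r with EXP1 at least as high was reached by 29 probe sets, 0.0844% of those tested other than EXP1's own. EXP2 was not left out of that comparison, and EXPB6 and EXPB3 are among the 29. In both EXP1 and EXP2 wild type replicate 3 was the highest array and Epi-df replicate 3 the lowest, and replicate 2 was below replicate 1 in each group. Of the 8 tested beta-expansins, 5 had an r over 0.8 with EXP1 and 2 had one below 0, beside 2.06% and 57.3% of the other tested probe sets. EXPB6 was at 0.994, EXPB3 at 0.962, EXPB7 at 0.928, EXPB11 at 0.874, EXPB4 at 0.847 and EXPB2 at 0.685. EXPB17 was at -0.56 and EXPB8 at -0.67. EXPB6 read 1498, 800.8 and 2434 in wild type and 1442, 727.9 and 732.1 in Epi-df, so it too was high in wild type replicate 3 and similar in the first replicates of both groups. How far the probes of these related genes also bind one another's transcripts was not tested.

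**Figure D3:**
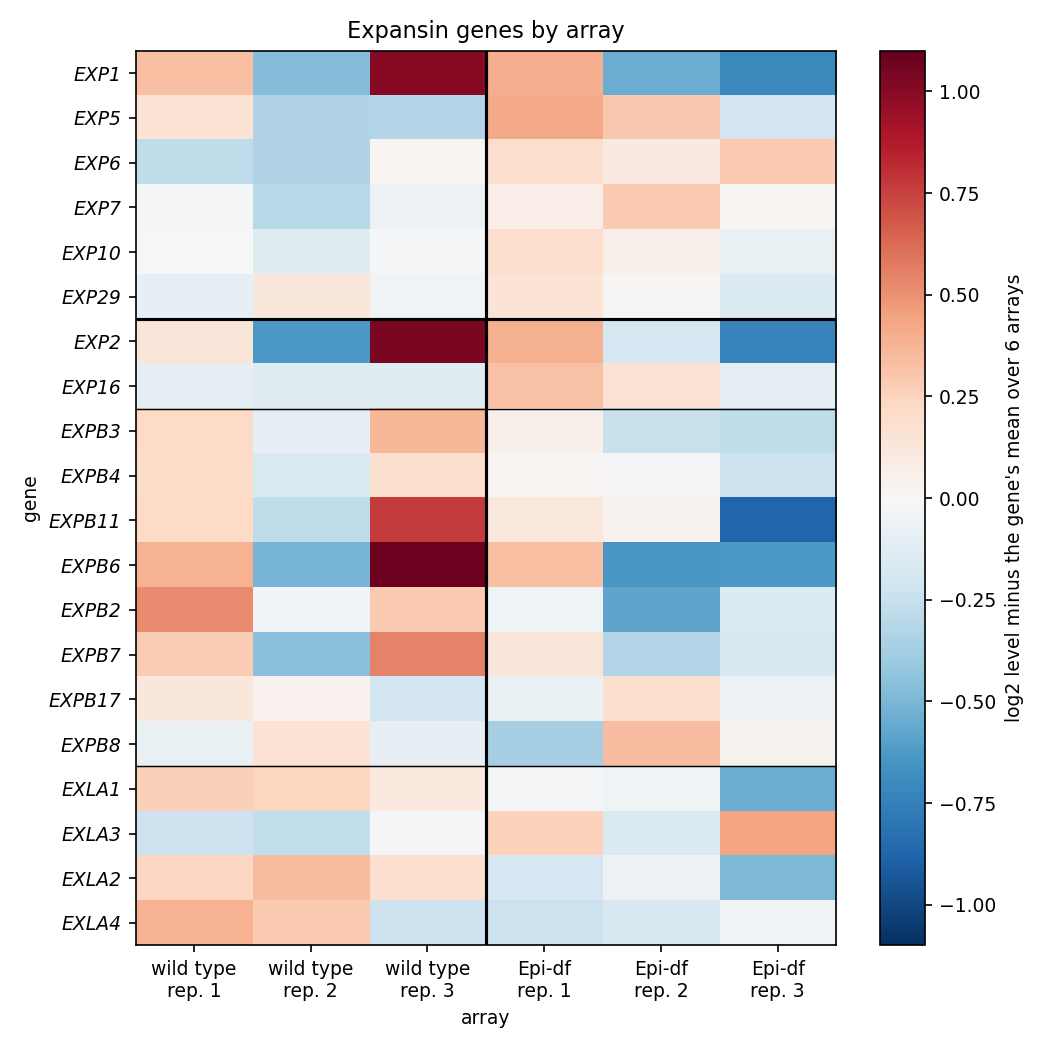
Log2 level of each expansin gene in each array minus the gene's own mean over the 6 arrays (red higher, blue lower). The first 6 genes down the plot are EXP1, EXP5, EXP6, EXP7, EXP10 and EXP29, followed by other alpha-expansins, beta-expansins and expansin-like genes. EXP1, EXP2, EXPB6 and EXPB11 are darkest red in wild type replicate 3, while EXP6 and EXP7 are lightly red in every Epi-df array.

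Of 2692 named probe sets of other genes, the 2 most like EXP1 were EXPB6 and the mannanase gene MAN1 (r = 0.994 and 0.982). Next to EXP5 were the kinesin gene KIN8B and the leucine-rich repeat gene IRL6 (0.941 and 0.937), and next to EXP10 were LHP1 and again IRL6 (0.986 and 0.985). EXP6 was closest to the protein phosphatase gene PP2A4 and the G protein subunit gene RGG1 (0.985 and 0.980). EXP7 was closest to the peroxiredoxin gene PRXIIE-1 and the small heat shock protein gene HSP18.0 (0.975 and 0.969). EXP29 was closest to the splicing factor gene RSZ21 and the catalase gene CAT-B (0.937 and 0.934). These genes were picked as the highest of many. Over all tested probe sets, an r over 0.9 was reached by 0.215% for EXP29, the lowest share of the members, and by 1.58% for EXP6, the highest. None of these 11 genes was called between the lines.

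Other genes that shape the growing wall were counted from lists. Among 8 tested beta-expansins, which act mainly on the walls of grasses, none was called, 2 were higher and 6 lower, and the median log2 change was -0.28. EXPB3 and EXPB4, the brightest of them, had log2 changes of -0.32 ± 0.14 and -0.14 ± 0.12, and EXPB6 had one of -0.63 ± 0.42. At an unadjusted limma p under 0.05 stood 1 of the 8 beta-expansins and 2 of the 4 expansin-like genes, beside 14.4% of all tested probe sets. The beta-expansin was EXPB2, at -0.52 ± 0.18 (limma adjusted p = 0.232). It was lower in every Epi-df array than in every wild type array. The role of the expansin-like genes in wall loosening is not established. Of the expansin-like genes none was called and 3 were lower, EXLA1 at -0.41 ± 0.15 among them, while EXLA3 was at 0.35 ± 0.16.

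Of 9 tested endoglucanase genes, which cut glucan chains in the wall, none was called, with 5 higher, 4 lower and 3 at an unadjusted limma p under 0.05. The brightest were GLU2 at -0.12 ± 0.06 and GLU1 at 0.41 ± 0.13. The 8 tested cellulose synthase genes were all lower in Epi-df by a median of -0.19, with none called and 3 at an unadjusted p under 0.05, beside the 14.4% of all tested probe sets. CESA3 and CESA1, of the complexes of the primary wall, were at -0.11 ± 0.07 and -0.06 ± 0.08. The 3 at an unadjusted limma p under 0.05 were CESA4, CESA7 and CESA9, at -0.53 ± 0.12, -0.27 ± 0.08 and -0.32 ± 0.11. Each of these was lower in every Epi-df array than in every wild type array. Of 19 cellulose synthase-like genes none was called and 3 stood at an unadjusted p under 0.05, with 9 higher and 10 lower. CSLF6, which makes mixed-linkage glucan, was at 0.07 ± 0.08 and CSLE1 at 0.81 ± 0.20 (limma adjusted p = 0.0991). XTH8, for an enzyme that cuts and rejoins xyloglucan, was at -0.35 ± 0.14. It was the 1 tested gene found by such a name, and genes of this kind without the name are not counted. SAUR39, an auxin-responsive gene, was at -0.20 ± 0.18.

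Groups did not overlap in 3 of 8 cellulose synthase genes, 4 of 9 endoglucanase genes, 4 of 19 cellulose synthase-like genes, 3 of 9 aquaporin genes, 2 of 4 expansin-like genes and 1 of 8 beta-expansins, beside 19.6% of all tested probe sets. In all, 2 of the 63 tested genes of these lists were called, against 0.614% of all tested probe sets. PIP1;3, an aquaporin gene of the plasma membrane and the 1 called of 9 tested (6 higher, 3 lower), rose from 1081 ± 173 to 2214 ± 419 in Epi-df, with a log2 change of 1.02 ± 0.16 (limma adjusted p = 0.0273). Its call was lost on leaving out wild type replicate 1 or 2 (limma adjusted p = 0.114 and 0.0897) and on leaving out Epi-df replicate 1 (0.0663). Leaving out Epi-df replicate 3 brought its change to 0.87 and a pseudocount of 64 brought it to 0.988, both under 2-fold. PMEI8, an inhibitor of pectin methylesterases and 1 of 2 tested genes of that list, read 68.9 to 78.2 in wild type, under the filter level of 81.1, and 240.9 to 521.9 in Epi-df. It was thus tested only through the group where it is high, and its count among the calls carries little weight. It rose from 73.8 ± 4.66 to 365 ± 143 (log2 change 2.02 ± 0.24, limma adjusted p = 0.00999), by 2.22 with a pseudocount of 1 and 1.59 with one of 64. Its call was lost without wild type replicate 1 or 2 (limma adjusted p = 0.0603 and 0.0527). The other gene of the list, PMEI28, was at -0.27 ± 0.15.

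**Figure D4:**
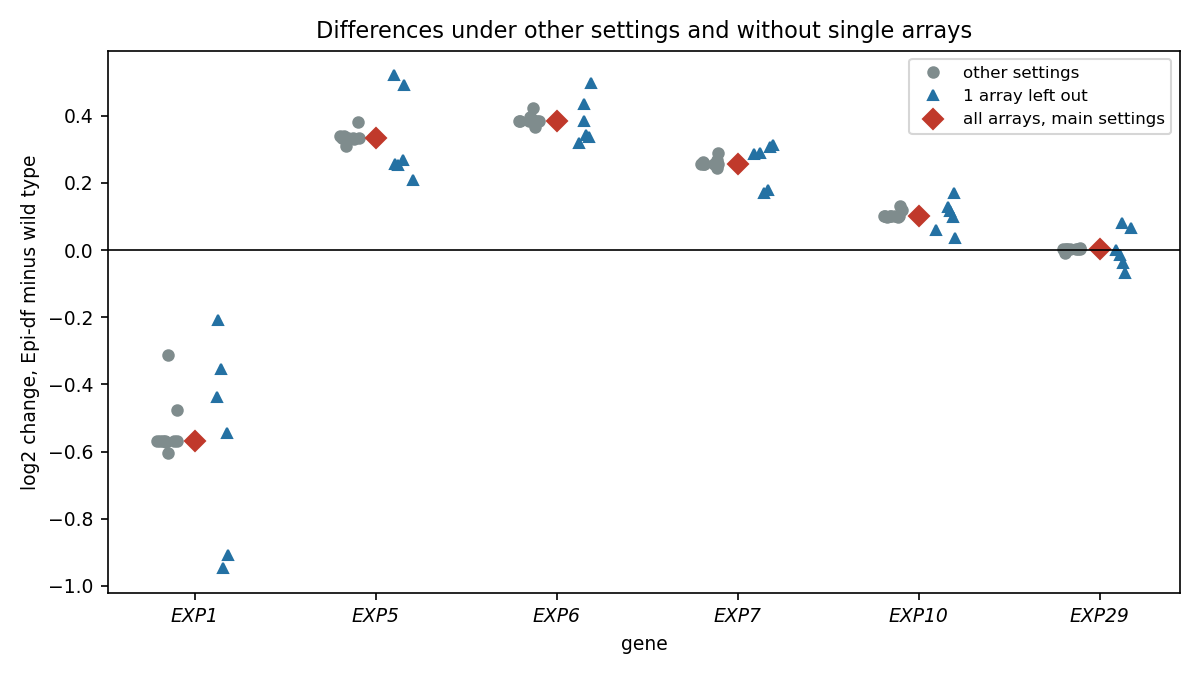
Log2 change (Epi-df minus wild type) of each of the 6 alpha-expansin genes with all arrays and the main settings (diamonds), under other settings (circles) and with 1 array left out (triangles). EXP1 is negative throughout and runs from -0.95 to -0.21, EXP5, EXP6, EXP7 and EXP10 are positive throughout, and EXP29 lies on both sides of 0.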

How the data were processed

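The authors deposited 1 table of linear intensity values per probe set. The submitters' processing notes name MAS5. Version, scaling target and detection calls are not given in the sources used here. Of 57381 probe sets, 123 controls were left out and 22436 were paired with 1 gene through the platform annotation. All 17905 genes were matched in a RefSeq gene table (assembly ASM3414082v1), whose synonyms gave the EXP names.

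Groups came from the sample titles. Probe sets with a mean under the 40th percentile (intensity 81.1) were left out. Log2(intensity + 16) of the other 34355 was fitted with limma 3.58.1 in R 4.3.3 (intensity trend, two-sided, Benjamini-Hochberg over all of them), without a replicate block. The fit was tested on simulated data with planted changes of more than 2-fold. Those were larger than the change of any member, so that test says nothing of differences as small as theirs. A probe set was called at an adjusted p under 0.05 and 2-fold. The precision rests on 3 arrays a group. The p-values set the group difference against the spread between these biological replicates, which limma moderates over all tested probe sets.

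The members and lists were chosen with earlier results of these data known. Lists were set by name, read from synonyms where the symbol is a locus number. OSA15, a photosystem gene, was dropped from the SAUR and proton pump list. The highest probe set stood for a gene. The text names all members, all tested alpha-expansins, called list genes or else the 2 brightest, and the 2 genes most like each member. EXP3, EXP4 and the other dim alpha-expansins, EXPB6, EXPB7, EXPB11, EXPB17 and EXPB8 as companions of EXP1, and PMEI28 were added after their values were seen. So were EXPB2, CESA4, CESA7, CESA9 and the dimmer LHCP gene.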

Additional observations from a re-analysis of the deposited data

How the results depend on the processing

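Over 10 other settings and 6 fits that each left out 1 array, 91 of 95 values of the 6 alpha-expansin genes kept their direction and stayed short of a call. The 4 others were those of EXP29, whose log2 change was -0.0095 with array weights, -0.038 and -0.015 without wild type replicates 1 and 3 and -0.069 without Epi-df replicate 1 (-0.069 to 0.082 over all such fits), which made 2 members lower in place of 1 (with single arrays left out, 1 to 2). EXP29 was not tested with the filter at the 60th percentile. The lowest adjusted p of any member was 0.0739, for EXP6 with a replicate block. Whether the replicate numbers pair the samples was not settled. The correlation of deviations was 0.129, 0.327 and -0.064 for equal numbers, and ran from -0.296 to 0.128 for unequal ones. With the replicate block, 324 probe sets were called over the whole table (244 lower), against 211 (150 lower), and no call of a member changed. Dropping the fold threshold gave 614 calls, and lowering it to 1.5-fold gave 494. With single arrays left out it ran from 111 to 260, with 38 to 91 higher and 73 to 200 lower. The cause of these shifts was not tested. EXP2 ran from -0.76 to 0.068, the latter without wild type replicate 3. Not every named list gene was followed over these fits. Of the 288 values of those that were, 7, all of PIP1;3 and PMEI8, lost a call. The other EXP7 probe sets, under the filter, gave no alternative value. No detection calls were used, so how far background limits the dim alpha-expansins is unknown. The 95% interval of EXP1 reaches past 2-fold lower, so a difference of that size could not be told from none.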
